A study of Mus musculus with 2 samples.

Results

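The transcripts described here are those of 8 secreted or membrane-bound messengers of immune cells: the chemokines Ccl5, Ccl3, Ccl4 and Xcl1, the cytokines Ifng and Il4, and Tnf and Ltb of the tumour necrosis factor family. They were chosen by name, as 8 of the 32285 gene rows of the matrix, and their levels were set side by side in thymocytes sorted as early and late invariant natural killer T (iNKT) cells.

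The study compared mice in which a floxed Kidins220 gene is deleted by Cre under the proximal Lck promoter, active in thymocytes (pLckCre, called T-KO), with control (Ctrl) mice, all on the C57BL/6 background and untreated. Kidins220 is a scaffold protein at the T cell receptor. Thymi of 4 mice per genotype were pooled, and among cells positive for TCRβ and the CD1d tetramer (CD1dt), those that were CD24+ and NK1.1- were taken as stage 0 and those that were NK1.1+, CD24- and CD44+ as stage 3. Each sort was made 2 times. The resulting 8 populations each received a hashtag antibody, and all were mixed into 1 droplet library, read from the 5′ end of the transcripts. The methods give 1 wide span of ages for the Kidins220 mice of all experiments together, and none for the mice sequenced here.

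Of 16179 barcodes, 12147 passed the limits on genes (1000 or more) and on mitochondrial UMIs (5% or less), and 10007 of these were assigned to 1 of 8 hashtag rows, numbered 11 to 18 in the matrix. No label or method used here says which row holds which population, so no row is called a stage or a genotype, no test was made, and odd and even are only names of rows. The odd rows held 4249 cells (583 to 1601 per row) with a median of 6500 to 8068 unique molecular identifiers (UMIs) per cell, and the even rows 5758 cells (577 to 2162 per row) with a median of 3258 to 3804. Trav11, the variable segment of the invariant receptor, was at 39.5 to 56.5 UMIs per 1000000 UMIs of the cells (CPM) in the even rows and at 0.205 to 1.14 CPM in the odd rows. Klrb1c, which encodes NK1.1, was at 328 to 444 against 4.78 to 6.57 CPM, and Cd24a at 23.3 to 34.2 against 313 to 365 CPM. The 6 iNKT1 markers summed to 3462 to 3895 CPM in the even rows and to 204 to 267 CPM in the odd rows, so the odd rows carried the CD24 transcript of the stage 0 sort but scarcely that of the invariant receptor.

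The odd rows were therefore split by the first match of at least 2 Cd79a UMIs (810 cells), 5 Cst3 UMIs (972), 1 Rag1 UMI (418) or 2 Ikzf2 UMIs (1106), with 943 remaining cells. All 7 B cell markers reached 20 CPM in the Cd79a+ cells, whose summed level was 2367 to 2845 CPM against 14.1 to 41.8 CPM in the other 4 groups. Of the 10 dendritic and myeloid markers, 8 reached 20 CPM in the Cst3+ cells (865 to 1227 CPM summed), but 4 also did in the Cd79a+ cells (268 to 376 CPM). Of the 8 markers of double-positive (DP) thymocytes, 7 did so in the Rag1+ cells (1520 to 2123 CPM) and also in the remaining cells (1096 to 1286 CPM), and all 6 markers of selected thymocytes in the Ikzf2+ cells (1224 to 1338 CPM). These last also summed to 408 to 1279 CPM in the remaining cells, with 4 of the 6 at 20 CPM. Cells of the even rows were split by at least 2 UMIs of Izumo1r, which encodes folate receptor 4, into 725 Izumo1r+ cells and 5033 others.

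Chemokines are small secreted proteins that draw leukocytes along a gradient through G protein-coupled receptors. Ccl3, Ccl4 and Ccl5 draw T cells and monocytes, Ccl3 and Ccl5 in part through Ccr1, and Xcl1 acts on Xcr1, the receptor of cross-presenting dendritic cells. Mature iNKT cells are known for making interferon-γ (Ifng) and interleukin 4 (Il4) within a short time of stimulation, from transcripts that are present before it, and the iNKT1 subset favours Ifng. Tnf acts on Tnfrsf1a and Tnfrsf1b, and lymphotoxin β (Ltb), which pairs with Lta on the cell surface, acts on Ltbr and is known for its part in thymic medullary organization.

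In the GRCm38 genome with GENCODE M21, 4 of the 8 genes lie on chromosome 11: Il4 at chr11:53602982-53618669, Ccl5 at chr11:83525778-83530518, Ccl3 at chr11:83647844-83649355 and Ccl4 at chr11:83662584-83664683. Ccl3 and Ccl4 are 13228 bases apart with no coding gene between them. Ltb at chr17:35194439-35196320 and Tnf at chr17:35199381-35202007 are neighbours too, 3060 bases apart. Ifng lies at chr10:118441046-118445892 and Xcl1 at chr1:164931644-164935527. AU-rich ATTTA elements, through which Zfp36 proteins shorten the life of cytokine mRNA, were counted in the 3′ UTR of each gene: 8 in Tnf, 6 in Ifng, 5 in Ccl3, 2 each in Ccl4 and Il4, 1 in Xcl1, and 0 in Ccl5 and Ltb. Per 1000 bases of 3′ UTR, the 6 genes with an element held from 6.62 in Ccl4 to 19.2 in Il4, and Ccl5 and Ltb 0. The median of 20968 genes was 1.23, which includes genes with no element. Of these genes, 65.0% held 1 or more. The 3′ UTRs of Il4 and Xcl1 are only 104 and 141 bases long, so 2 and 1 elements gave a high density there.

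The promoters of Ifng and Il4 are shown because both transcripts were higher in the even rows, while Il4 was somewhat less frequent in cells with Ifng than without. Those of Tnf and Ltb are shown because, among the groups of the odd rows, these neighbours were both highest in the Cd79a+ cells. Each runs 5′ to 3′ on the strand of the gene, from 250 bases before the annotated start to 50 after it (RefSeq, GRCm38.p6), with capitals for the TATA box TATAAA, for GGAAA, a core that NFAT proteins bind, read on either strand, and for the kappaB motif. The intervals are chr10:118440796-118441095 on the plus strand for Ifng, chr11:53618616-53618915 on the minus strand for Il4 (1 of 2 starts listed), chr17:35201958-35202257 on the minus strand for Tnf and chr17:35194257-35194556 on the plus strand for Ltb.
Ifng: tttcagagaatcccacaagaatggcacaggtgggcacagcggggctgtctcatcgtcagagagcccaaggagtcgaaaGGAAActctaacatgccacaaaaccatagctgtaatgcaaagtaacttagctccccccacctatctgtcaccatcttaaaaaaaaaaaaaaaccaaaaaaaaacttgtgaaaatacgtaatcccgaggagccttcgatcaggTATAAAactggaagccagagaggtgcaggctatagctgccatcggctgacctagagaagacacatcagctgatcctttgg
Il4: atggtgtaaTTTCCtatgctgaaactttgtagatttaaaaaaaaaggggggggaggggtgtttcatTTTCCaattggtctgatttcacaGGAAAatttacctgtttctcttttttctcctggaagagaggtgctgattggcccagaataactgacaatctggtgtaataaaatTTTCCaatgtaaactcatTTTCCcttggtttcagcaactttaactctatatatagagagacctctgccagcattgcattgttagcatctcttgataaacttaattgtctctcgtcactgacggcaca
Tnf: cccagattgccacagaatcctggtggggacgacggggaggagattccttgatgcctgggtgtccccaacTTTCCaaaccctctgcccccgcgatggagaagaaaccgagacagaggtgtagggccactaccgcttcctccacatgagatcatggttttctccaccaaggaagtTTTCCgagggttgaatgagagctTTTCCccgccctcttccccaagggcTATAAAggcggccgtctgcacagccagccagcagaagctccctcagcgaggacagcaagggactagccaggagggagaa
Ltb: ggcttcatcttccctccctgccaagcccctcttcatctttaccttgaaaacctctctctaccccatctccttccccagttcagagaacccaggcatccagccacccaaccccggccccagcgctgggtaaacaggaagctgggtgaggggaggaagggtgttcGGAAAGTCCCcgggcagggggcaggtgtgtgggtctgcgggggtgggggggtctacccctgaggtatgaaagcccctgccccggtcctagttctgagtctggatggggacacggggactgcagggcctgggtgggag

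TATAAA stood 30 bases before the start of Ifng and 29 before that of Tnf, and not in the windows of Il4, Ltb, Xcl1 and Ccl3. On either strand it was found in 13.6% of all 32851 promoter windows. GGAAA occurred 5 times at Il4, 3 times at Tnf, 2 times at Ccl3, and 1 time each at Ifng, Xcl1 and Ltb, and 61.3% of all windows held at least 1. The kappaB motif was found at Ltb alone among the 6 members with a window, 87 bases before the start, where it overlaps the GGAAA match, and in 8.46% of all windows. GGTGTGA, a motif of T-box factors, was found 1 time at Xcl1 (3.98% of all windows), and TGANTCA, bound by AP-1, at none (7.81%). These matches are letters in a window and do not show binding.

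Ifng, the effector cytokine favoured by iNKT1 cells, was high in all even rows. Its level was 173, 189, 95.04 and 121 CPM in rows 12, 14, 16 and 18, and 1.64, 1.51, 1.71 and 2.41 CPM in rows 11, 13, 15 and 17. Il4, the other effector cytokine, was at 30.2, 33.0, 21.5 and 32.0 CPM in the same even rows, and at 1.13, 0.479, 0.569 and 3.52 CPM in the odd rows. The lowest even row stood above the highest odd row for both genes. The ratio of the medians was 87.7 for Ifng and 36.6 for Il4. The odd rows together held only 66 Ifng and 42 Il4 UMIs, so the size of these ratios rests on few counts. With 10 CPM added to every level, the log2 ratio was 3.75 for Ifng and 1.92 for Il4, where the median over all genes was -0.09.

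Xcl1, the ligand of Xcr1, was nearly the same in all even rows, at 287, 292, 274 and 281 CPM, with 95% intervals from 253 to 304 CPM that all overlapped. The odd rows were at 25.1, 42.8, 25.3 and 27.96 CPM (log2 ratio of the medians 3.01). Ccl5 was at 890, 818, 557 and 579 CPM in rows 12, 14, 16 and 18 and at 132, 79.8, 65.6 and 150 CPM in the odd rows (log2 ratio 2.61). Rows 12 and 14 stood above rows 16 and 18 for Ccl5 and for Ifng, with intervals that did not overlap. No other member had rows 12 and 14 apart from rows 16 and 18 in this way. Intervals of levels are exact Poisson and those of shares Clopper-Pearson, at 95%, and cover counting error only.

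Ltb, the membrane partner of Lta, was at 849, 858, 950 and 905 CPM in rows 12, 14, 16 and 18, and ran from 158 to 305 CPM in the odd rows (log2 ratio 2.00). Tnf was at 29.9, 41.0, 30.7 and 50.1 CPM in the even rows and 7.29 to 13.3 CPM in the odd rows (log2 ratio 1.22). Ccl4 was the one member whose rows overlapped between odd and even, at 23.9, 27.6, 5.26 and 19.4 against 7.96 to 10.9 CPM, with row 16 the lowest of all 8. How large a share of all genes had even and odd rows that did not overlap was not computed. A single cell held 41 of the 94 Ccl4 UMIs of row 18, which was at 10.95 CPM without it. Ccl3 was at 3.07 to 7.27 CPM in the even rows and 0.569 to 1.54 CPM in the odd rows, on 107 and 42 UMIs. In the order of the 8 rows, neighbours whose intervals overlapped numbered 1 of 7 for Ccl5, 3 for Ltb, 4 for Ifng, 5 each for Xcl1 and Il4, 6 each for Ccl4 and Tnf, and all 7 for Ccl3.

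**Figure D1:**
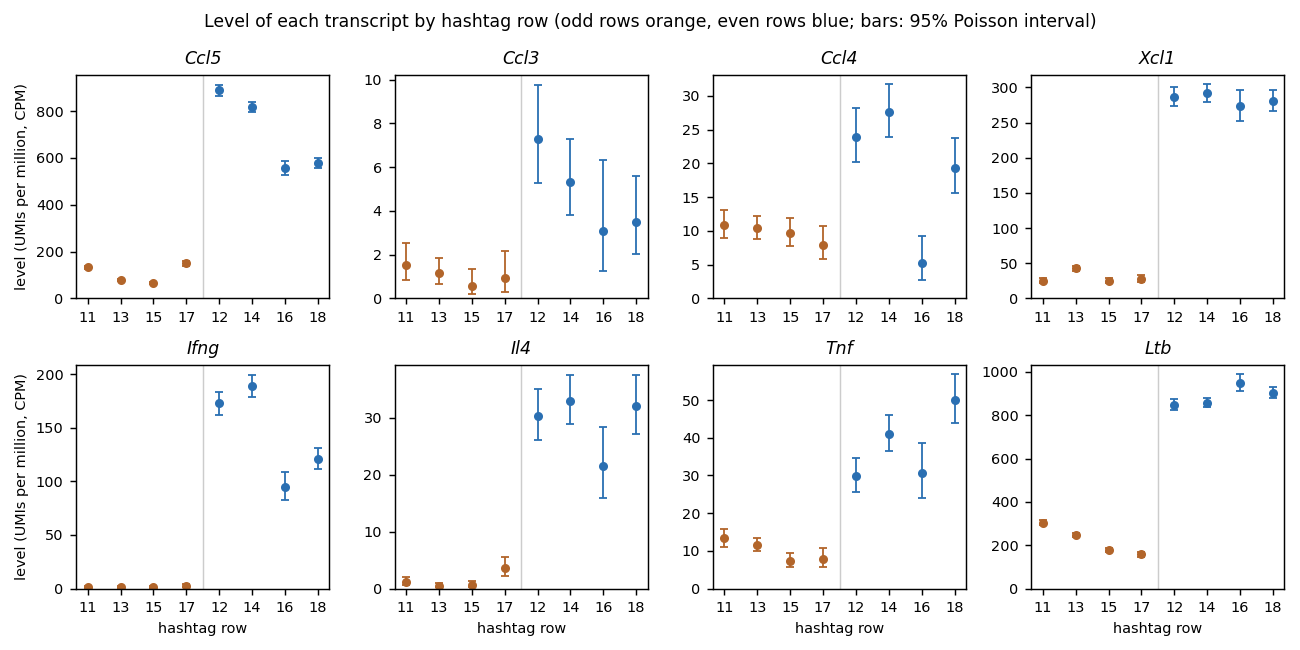
Level of each transcript (CPM, linear axis from 0, a different scale per panel) in the 4 odd and 4 even hashtag rows, with 95% Poisson intervals as bars. All 4 even rows lie above all 4 odd rows for each member but Ccl4, whose row 16 is at 5.26 CPM. The share of all genes with rows separated in this way was not computed.

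Taking as called a gene whose lowest even row was at least 2-fold above its highest odd row on the log2 scale with 10 CPM added, 5 of the 8 members were called higher in the even rows: Ccl5, Xcl1, Ifng, Il4 and Ltb. Of 7916 genes with at least 20 CPM in a row, which include all members but Ccl3, 4.04% were called higher and 4.7% lower in the even rows. No member was called lower. Without the cells of over 4000 genes Ccl5 was not called, and with 50 CPM added in place of 10, Il4 was not.

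Shares of cells were compared at equal depth. Thinned to 2000 UMIs per cell, a Ccl5 UMI was found in 28.1 to 36.9% of the cells of an even row, Xcl1 in 31.9 to 39.9%, Ifng in 14.9 to 25.4%, Il4 in 4.45 to 6.12%, Tnf in 5.64 to 8.27% and Ltb in 75.7 to 78.7%. The Rag1+ cells, DP-like by their markers, gave shares of 0.719 to 3.16% for Ccl5, 0.543 to 0.849% for Xcl1, at most 0.694% for Ifng, 0.457 to 1.04% for Tnf and 6.99 to 12.2% for Ltb at the same thinned depth, where their median before thinning was 13562 UMIs against 3401 in the even rows. For Il4, 3 rows of Rag1+ cells gave 0 and row 11 gave 3.605%, on 4 UMIs. Other groups of the odd rows came closer to the even rows. At the same depth, Tnf was found in 5.69 to 12.6% of the Cd79a+ cells, which overlapped the even rows. Ltb was found in 68.1 to 74.3% of them, slightly below the even rows. The highest share in an odd group was 8.71% for Ccl5 (Cst3+) and 10.2% for Xcl1 (Ikzf2+). These, and Ifng and Il4 in every odd group, stayed below the even rows. Before thinning, a Ccl5 UMI was found in 38.1% of the cells of the even rows and in 7.89% of the Rag1+ cells, and an Ifng UMI in 31.7 and 1.20%. Cells under 2000 UMIs were left out of the thinned shares, 552 in the even and 216 in the odd rows.

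Within the odd rows, most of the Ccl5 came from the Cst3+ cells, which also carried most of the dendritic cell markers. Their level was 283, 318, 191 and 504 CPM in rows 11, 13, 15 and 17, against 16.5, 10.5, 15.04 and 33.1 CPM in the remaining cells of the same rows. The log2 ratio was 3.47, 4.00, 3.00 and 3.58, and Ccl5 was the only member called higher in the Cst3+ cells in every row (5.93% of 8021 genes were, and 1.32% were lower). Cst3+ cells made up 22.9% of the cells of the odd rows and held 84.6% of their Ccl5 UMIs. In row 17, 1 cell held 217 of the 580 UMIs, and the level without it was 318 CPM.

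This Ccl5 lay in few cells. Of 972 Cst3+ cells, 811 had no Ccl5 UMI and 40 had 5 or more, up to 295 in 1 cell, and these 40 held 95.4% of the UMIs. Without the UMIs of such cells the Cst3+ level was 13.7 CPM, beside 13.3 CPM in Cd79a+, 16.9 CPM in Ikzf2+, 13.2 CPM in remaining and 6.63 CPM in Rag1+ cells computed in the same way. All 4 rows contributed, with 5 to 20 of the 40 cells each. The Ccl5-rich cells had a median of 7635 UMIs, fewer than the 10759 of the Cst3+ cells without Ccl5.

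These 40 cells also differed from the 809 Cst3+ cells with no Ccl5 UMI and at least 2000 UMIs in the genes of the fixed lists, with all cells thinned to 2000 UMIs. Ccr7, the receptor with which dendritic cells move to T cell zones, was at 1925 CPM (1633 to 2254) against 27.2 CPM (19.8 to 36.5), and had a UMI in 92.5 against 1.85% of the cells. Fscn1, the actin-bundling protein of mature dendritic cells, was at 5100 against 154 CPM. The chemokine Ccl22 was at 2175 against 118 CPM and Ccl17 at 800 against 138 CPM, both ligands of Ccr4. Il15 was at 238 against 11.7 CPM and Cxcl16 at 700 against 125 CPM. All of these were higher in 4 of 4 rows except Ccl22, in 3 of 4. No UMI was seen of Xcr1, Clec9a, Lyz2 or Csf1r, for which 46.1 CPM is the upper limit of the interval, while the cells without Ccl5 were at 108, 80.3, 322 and 78.5 CPM. Itgax, which encodes CD11c, was at 12.5 against 191 CPM. These genes were named after their values were seen.

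**Figure D2:**
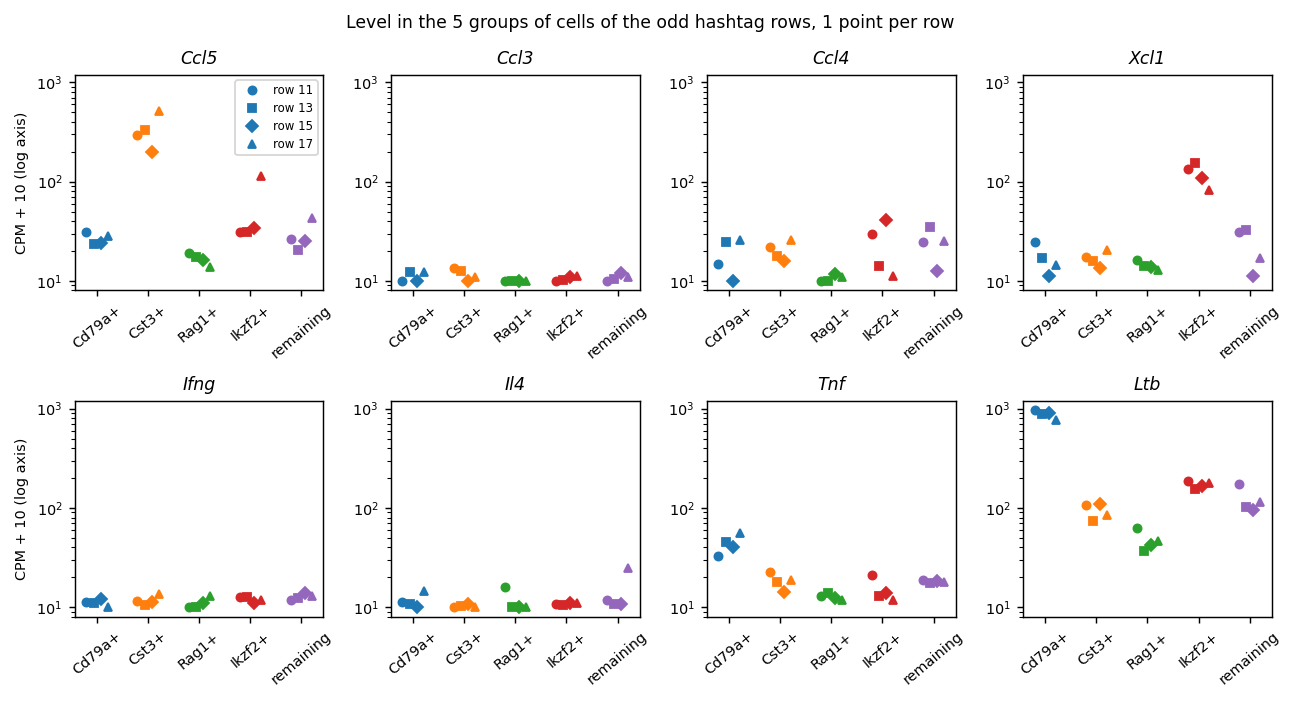
Level of each transcript (CPM + 10, log axis) in the 5 groups of cells of the odd rows, 1 point per row. Ccl5 stands out in Cst3+ cells (191 to 504 CPM), Xcl1 in Ikzf2+ cells (72.1 to 143 CPM) and Ltb in Cd79a+ cells (765 to 959 CPM), whereas Ifng stays under 4 CPM in every group.

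In the odd rows Xcl1 was highest in the Ikzf2+ cells, which were chosen by the transcript of Helios. It was at 124, 143, 98.9 and 72.1 CPM in rows 11, 13, 15 and 17, and at 21.001, 22.8, 1.31 and 7.01 CPM in the remaining cells. The log2 ratio was 2.11, 2.22, 3.27 and 2.27, and no other member was called in this comparison, where 0.781% of 7808 genes were called higher and 0.0128% lower. Ikzf2+ cells made up 26.0% of the cells of the odd rows and held 79.6% of the Xcl1 UMIs. Single cells weighed on it: 1 cell held 115 of 203 UMIs in row 15 and 1 held 78 of 127 in row 17, and the levels without them were 43.2 and 28.02 CPM. With the highest cell of every group and row left out, Xcl1 was still called.

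Of the 1106 Ikzf2+ cells, 40 had 5 or more Xcl1 UMIs and held 84.8% of them. In thinned counts they were set against 926 Ikzf2+ cells with none. Tnfrsf9, the costimulatory receptor 4-1BB, was at 675 CPM (507 to 881) against 188 CPM (169 to 209), and Cd7 at 462 against 185 CPM, both higher in 4 of 4 rows. Nkg7, of cytotoxic granules, was at 338 against 130 CPM and Icos at 87.5 against 21.1 CPM, both in 3 of 4 rows. Dntt and Arpp21, genes of DP thymocytes, and Klf2, a regulator of thymic exit, had no UMI in the 40 cells (upper limit 46.1 CPM), against 205, 86.4 and 204 CPM. Of the other DP markers, Cd8a was at 50 CPM (13.6 to 128) against 39.96 CPM and Cd4 at 25.0 CPM (3.03 to 90.3) against 17.8 CPM, on 4 and 2 UMIs, and each was higher in 1 of 4 rows. Egr2, induced by receptor signals, was at 87.5 against 43.2 CPM and higher in only 2 of 4 rows. The other markers of selected thymocytes ran both ways. Nr4a1 was at 675 against 431 CPM and Itm2a at 762.5 against 462 CPM, both higher in 3 of 4 rows. Cd69 was at 50 against 117 CPM, higher in 1 of 4 rows, and Cd5 at 250 against 368 CPM, higher in 0 of 4. Egr1 was at 162.5 against 184 CPM, higher in 1 of 4 rows. The Xcl1-rich cells were deeper, with a median of 9264 UMIs against 5555, which affects the choice of cells with 5 UMIs. Its part in these differences was not tested.

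Among the groups of the odd rows, Ltb and Tnf were highest in the Cd79a+ cells, B cell-like by their markers. Ltb was at 959, 878, 894 and 765 CPM there and at 165, 93.0, 85.7 and 105 CPM in the remaining cells, for a log2 ratio of 2.46, 3.11, 3.24 and 2.75. It was the one member called (5.57% of 8221 genes were called higher and 6.42% lower). Tnf was at 22.8, 35.4, 30.5 and 46.0 CPM against 8.91, 7.37, 8.50 and 8.01 CPM, a log2 ratio of 0.79 to 1.64 that fell short of 2-fold in row 11. Cd79a+ cells were 19.1% of the cells of the odd rows, and held 64.1% of the Ltb and 49.4% of the Tnf UMIs. Lta, the partner of Ltb, was at 62.0 CPM in the Cd79a+ cells and at 0.358 to 4.89 CPM in the other groups.

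Unlike Ccl5 in Cst3+ cells, Ltb was spread over the Cd79a+ cells. It had 5 or more UMIs in 53.7% of them and none in 15.2%. Tnf was found with 1 UMI or more in 17.3% of them and reached 5 UMIs in 2 cells. The 139 Cd79a+ cells with a Tnf UMI and 654 without were at 338 CPM (273 to 414) and 124 CPM (106 to 144) for Ccl22 and at 97.1 and 33.6 CPM for Nfkbid, an inhibitor of NF-κB induced by it. Fscn1 was at 284 against 138 CPM and Rel at 101 against 61.2 CPM. All 4 were higher in 4 of 4 rows, and Ltb itself, at 1313 against 1192 CPM, in 3 of 4. Ccl22 and Fscn1 are also genes of dendritic cells, whose markers were seen in the Cd79a+ cells as given above, and their part here was not tested.

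Ccl4 had no group of the odd rows in which it was highest throughout. The remaining cells were at 14.6, 24.6, 2.62 and 15.02 CPM in rows 11, 13, 15 and 17, and at 12.8, 19.02 and 5.02 CPM in rows 11, 13 and 17 without the highest cell. The Ikzf2+ cells of row 11 were at 19.5 CPM, and at 15.3 CPM without it. In some other groups a single cell held most of the UMIs. In the Ikzf2+ cells it was at 30.7 CPM in row 15, where 1 cell held 52 of 63 UMIs, and at 5.37 CPM without this cell. One Cd79a+ cell of row 13 held 39 of 42 UMIs, and 1 Cst3+ cell of row 17 held 17 of 18. Ccl5 in the Ikzf2+ cells of row 17 was of the same kind, with 145 of 185 UMIs in 1 cell and 105 CPM with it against 22.7 CPM without. Ifng was at 3.92 CPM or less in every odd group and row, with 66 UMIs in 4249 cells. Il4 had 42 UMIs, 21 of them in the remaining cells, where row 17 was at 15.02 CPM on 15 UMIs, 6 of them in 1 cell.

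**Figure D3:**
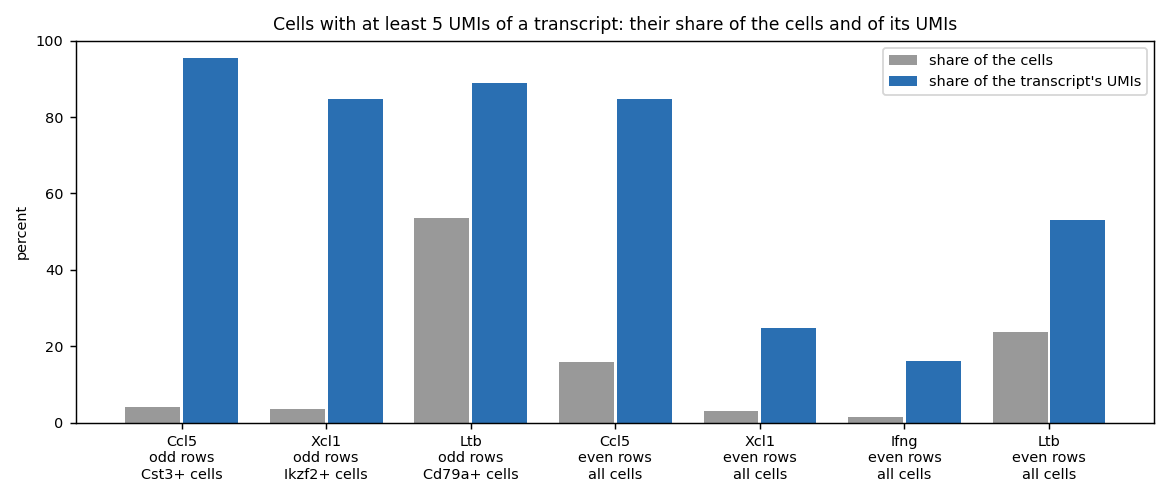
Percent of cells with at least 5 UMIs of a transcript (grey) and percent of its UMIs that these cells held (blue), in full counts, for 7 sets of cells. In the Cst3+ cells 4.12% of the cells held 95.4% of the Ccl5 UMIs, and in the even rows 15.8% held 84.7%, while 1.46% of the cells held 16.1% of the Ifng UMIs.

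In the even rows, the Izumo1r+ cells had little Ccl5. They made up 7.53, 10.4, 17.7 and 21.1% of rows 12, 14, 16 and 18. Their Ccl5 was at 177, 254, 268 and 107 CPM, and that of the other cells of the same rows at 956, 891, 638 and 728 CPM. The 2 sets did not overlap, and the log2 ratio was -2.37, -1.77, -1.22 and -2.66. Ccl5 was the one member called. Only 0.0276% of 7240 genes, Ccl5 and Gzma of cytotoxic granules, were lower at least 2-fold in every row, and the same percentage was higher, Izumo1r itself and Ephx1. Summed over the rows, the Izumo1r+ level was 0.219 (0.201 to 0.238) of the other, 538 of the 725 Izumo1r+ cells (74.2%) had no Ccl5 UMI, and 30 had 5 or more. In the other cells 60.2% had none.

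Il4 ran the opposite way. In the Izumo1r+ cells it was at 44.6, 35.6, 40.006 and 54.3 CPM and in the others at 28.9, 32.6, 16.3 and 24.9 CPM, higher in 4 of 4 rows (log2 0.49, 0.10, 0.93 and 0.88) but less than 2-fold. The intervals overlapped in rows 12 and 14, where the Izumo1r+ cells held 23 and 30 Il4 UMIs, and not in rows 16 and 18. The ratio of the sums was 1.60 (1.31 to 1.94). Ifng was lower in the Izumo1r+ cells in 4 of 4 rows, at 114, 178, 54.0 and 47.4 CPM against 178, 190, 107 and 144 CPM, though in row 14 the intervals overlapped. Its ratio of sums was 0.573 (0.506 to 0.647). Thus the Izumo1r+ cells made up 12.6% of the cells of the even rows and held 14.7% of all their UMIs. Of the UMIs of single members they held 21.7% for Il4, 9.01% for Ifng and 3.65% for Ccl5.

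The remaining members differed less. Ltb was at 920, 915, 1012 and 1003 CPM against 843, 851, 933 and 874 CPM, higher in 4 of 4 rows by a log2 ratio of 0.10 to 0.20. Xcl1 was lower in 3 of 4 rows (231, 330, 170 and 190 against 292, 287, 303 and 310 CPM) and Ccl4 too, while Tnf was higher in 3 of 4 with a ratio of sums of 1.14 (0.941 to 1.38). Ccl3 had 1 UMI in the Izumo1r+ cells and 106 in the others. When every cell was first thinned to 2000 UMIs and split at 1 Izumo1r UMI, the median log2 ratio was 0.046 for Ccl4 and -0.049 for Xcl1. Split at 1 Izumo1r UMI without thinning, it was -0.20 and -0.19, and at 2 UMIs -0.81 and -0.50. The Izumo1r+ cells had a median of 3814 UMIs and the others 3333. Trav11 was at 36.9 to 69.8 CPM in the first and 39.7 to 52.3 CPM in the second.

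**Figure D4:**
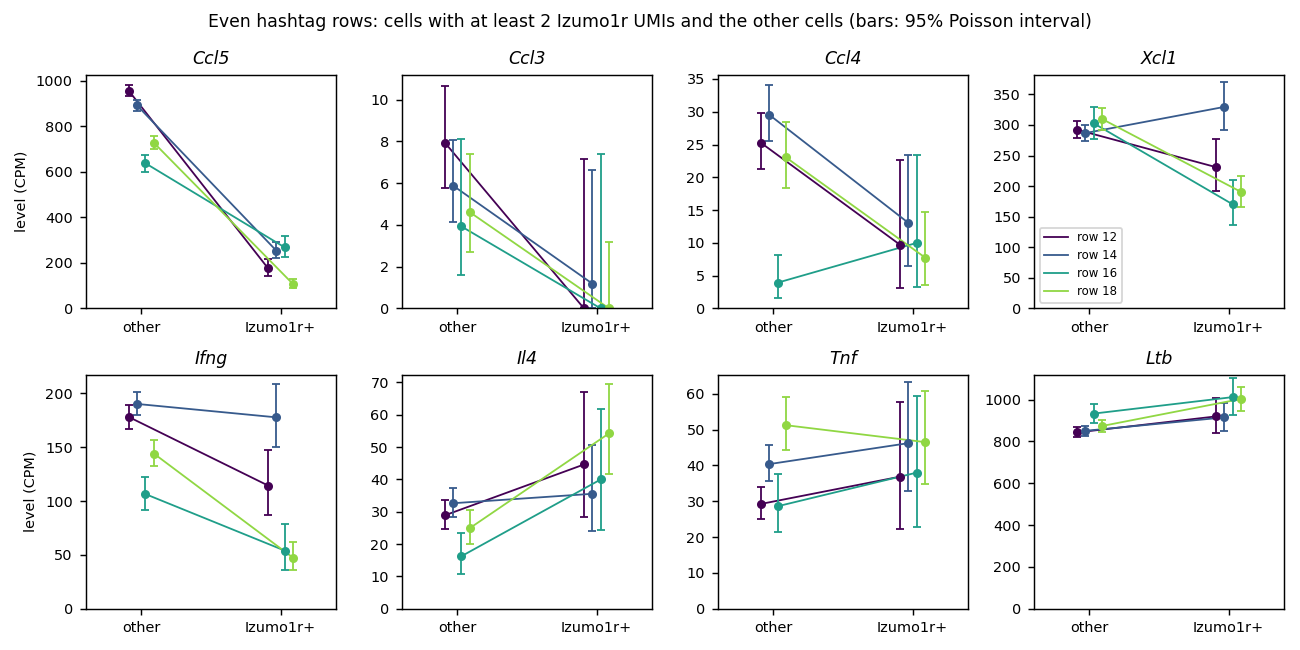
Level of each transcript (CPM, linear axis from 0, a different scale per panel) in the Izumo1r+ cells and the other cells of each even row, joined by a line per row, with 95% Poisson intervals as bars. Ccl5 falls in all rows, from 638 to 956 down to 107 to 268 CPM, and Il4 is higher in all rows, while the lines of Tnf and Xcl1 run both ways.

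From cell to cell, Ccl5 was the most uneven of the abundant members of the even rows. In full counts 61.9% of the cells had no Ccl5 UMI, while 910 cells with 5 or more (15.8%) held 84.7% of its UMIs. For Xcl1, 50.3% had none and 2.97% had 5 or more with 24.7% of the UMIs. Ifng had none in 68.3% and 5 or more in 1.46%. No cell had over 6 UMIs of Tnf or 5 of Il4. Ltb was found in 87.5% of the cells.

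The Ccl5-rich cells were set against those without Ccl5 in thinned counts, as 902 and 3121 cells. Klf2 was at 640 CPM (603 to 678) against 390 CPM (374 to 405) and its target S1pr1, which guides exit from the thymus, at 35.5 against 16.8 CPM. The Ly49 receptor gene Klra8 was at 25.5 against 7.21 CPM and Ifng at 210 against 145 CPM, and these 4 were higher in 4 of 4 rows. Lower in 4 of 4 rows were Zbtb16, which encodes the iNKT lineage factor PLZF, at 37.7 against 76.9 CPM, Icos at 57.6 against 123 CPM, Cd4 at 10.5 against 30.9 CPM and Il4 at 14.97 against 39.1 CPM. Ltb was at 803 against 969 CPM, also lower in every row. Tbx21, which encodes T-bet, differed little, at 211 (191 to 234) against 193 CPM (183 to 205).

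The 504 cells with an Il4 UMI had the other profile, against 4702 cells without. Zbtb16 was at 104 CPM (85.2 to 126) against 65.7 CPM (60.6 to 71.1), Egr2, the early factor induced by receptor signals, at 35.7 against 12.1 CPM, and Icos at 151 against 101 CPM. Klf2 was at 235 against 460 CPM and Ccl5 at 385 against 845 CPM. Each of these ran the same way in 4 of 4 rows. Gata3, a factor of Il4 transcription in helper T cells, was at 91.3 against 89.3 CPM, with intervals that overlapped. Median depths were 3517 and 3511 UMIs.

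Ifng was found with more Ccl5, at 1072 against 668 CPM, and with more Klf2, at 524 against 397 CPM, in the 1701 cells with an Ifng UMI against 3505 without, both in 4 of 4 rows. Izumo1r was at 107 against 188 CPM and Zbtb16 at 56.1 against 75.9 CPM, lower in 4 of 4. Cells with Tnf had more Nfkbid (65.7 against 41.7 CPM) and Egr1 (135 against 86.2 CPM), both in 3 of 4 rows, and less Ccl5 (582 against 829 CPM) in 4 of 4. The 169 cells with 5 or more Xcl1 UMIs, against 2438 with none, were at 71.0 against 11.7 CPM for Egr2 and 260 against 90.03 CPM for Egr1, in 4 of 4 rows. They held the NK cell receptor gene Ncr1 at 62.1 CPM (38.5 to 94.97) against 0.41 CPM, and Trav11 at 26.6 CPM (12.2 to 50.5) against 58.9 CPM (52.2 to 66.1), while Eomes had no UMI. The 4 NK cell markers summed to 16.7 to 34.4 CPM in the even rows, with none of them at 20 CPM. The median depth of the Xcl1-rich cells was 4038 against 3440 UMIs, and the part of NK cells in them was not tested.

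Pairs of members were then counted in the same cell, over all 28 pairs, at 2000 UMIs per cell. Il4 was found in 4.97, 4.61, 2.13 and 4.38% of the cells with Ccl5 in rows 12, 14, 16 and 18, and in 6.79, 6.81, 5.41 and 6.54% of those without. With Ifng it was found in 4.16, 3.84, 2.96 and 3.63%, and without in 6.73, 6.81, 4.71 and 6.42%. Il4 was thus less frequent beside either transcript in all 4 rows, by 1.82 to 3.28 and 1.75 to 2.97 percentage points. Read the other way, Ccl5 was found in 25.4% (20.6 to 30.7) of the cells with Il4 and 33.9% (32.6 to 35.3) of those without, and Ifng in 14.5% (10.6 to 18.8) and 22.6% (21.5 to 23.9).

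Ccl5 and Ifng went together. Ifng was found in 26.8, 29.0, 17.7 and 20.6% of the cells with Ccl5 and in 21.9, 23.6, 13.8 and 16.2% of those without, a difference of 3.97 to 5.43 points. Xcl1 was more frequent beside Ifng in 4 of 4 rows, by 0.92 to 11.98 points, and beside Ccl5 in 3 of 4. The neighbours Ccl3 and Ccl4 were also found together. Of about 130 cells with Ccl4, 7.59% (3.75 to 13.7) had Ccl3, and of the cells without Ccl4 0.506% (0.335 to 0.750). The count rests on about 10 cells, and 2 rows had at least 20 cells with Ccl4. In these 2 rows Ccl3 was more frequent beside Ccl4 by 3.78 and 9.50 points, Ccl5 by 14.7 and 12.1 points, and Ifng by 6.68 and 13.5 points.

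**Figure D5:**
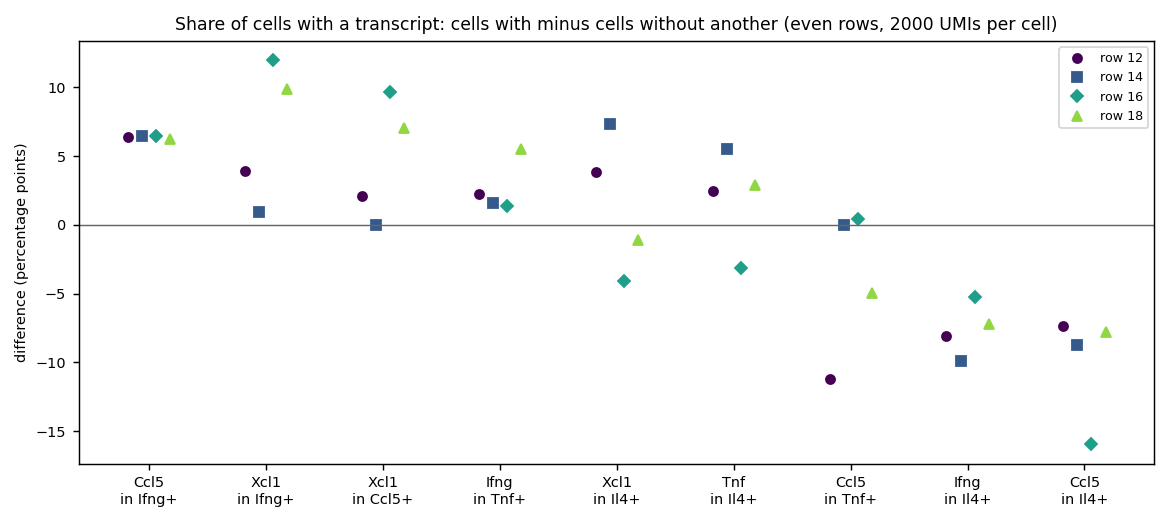
Share of cells with the first transcript among cells with a UMI of the second, minus its share among cells without (percentage points), 1 point per even row, at 2000 UMIs per cell. Ccl5 in Ifng+ cells lies at 6.23 to 6.48 points in all rows, and Ccl5 and Ifng in Il4+ cells lie below 0 in all rows.

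Counted over Ccl5, Xcl1, Ifng and Il4 in 1 thinned draw, 32.5% of the 5206 cells had none of the 4. Xcl1 alone was found in 17.02%, Ccl5 alone in 14.3%, both without Ifng and Il4 in 9.37%, and Ifng alone in 7.68%. All 4 were found in 6 cells (0.115%). The mean number of the 8 members found per cell was 1.86 in the even and 0.440 in the odd rows.

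Among related genes of the fixed lists, the chemokines other than the members were highest in the Cst3+ and Cd79a+ cells of the odd rows, where the 16 genes summed to 470 to 617 and 200 to 581 CPM. The sum was 14.7 to 34.01 CPM in the other odd groups and 19.4 to 30.7 CPM in the even rows. Of these 16 genes, 3 reached 20 CPM over all cells of the odd rows (Ccl22 at 84.5, Cxcl16 at 42.7 and Ccl17 at 37.2 CPM), and none did in the even rows, where the highest was Ccl25 at 11.5 CPM. Of 35 other cytokine genes, 4 reached 20 CPM in the odd and 8 in the even rows, in both led by Mif, Tgfb1 and Il16. The even rows also had Cd40lg at 126 CPM, Fasl at 123 CPM and Flt3l at 102 CPM.

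The receptors of the members were divided between the groups of cells. Xcr1, which binds Xcl1, was at 106 CPM in the Cst3+ cells and at most 3.12 CPM in the other odd groups and the even rows. Ltbr, the receptor of the lymphotoxins, was at 40.7 CPM in the Cst3+ cells and at 1.41 CPM in the even rows. Ccr1 was at 41.3 CPM in the Cd79a+ cells and at 0.39 CPM in the even rows. Of the 12 receptor genes, 6 reached 20 CPM in the odd and 5 in the even rows. Il2rg, a subunit of the Il4 receptor, and Ifngr1 were the highest in both, and in the even rows at 863 and 448 CPM. Of 24 regulators of cytokine transcripts, 15 reached 20 CPM in the odd and 18 in the even rows, where Zfp36l2 (524 CPM), Zfp36 (480 CPM) and Klf2 (423 CPM) were highest.

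Across the 28 groups of cells with at least 50 cells, the genes most like each member in log2 level (CPM with 10 added), among 9221 genes, were Klra7, Klre1 and Ifitm10 for Ifng (Pearson r of 0.99 each), Zfp683, Podnl1 and Zbtb16 for Il4 (0.94 to 0.96), and Nt5e, Pde2a and Tnfsf10 for Xcl1 (0.96 to 0.97). For Ccl5 they included Dse (0.96) and Itgae (0.92), and they were for Tnf Capg, Zbtb4 and Tmem154 (0.94 to 0.95) and for Ltb Gem, Tgfbr2 and Sqstm1 (0.97 each). No gene passed 0.64 for Ccl4 or 0.77 for Ccl3. Among the members, Tnf and Ltb were most alike (0.92), followed by Ifng and Il4 (0.88). Ifng and Il4 share the gap between odd and even groups, while within the even rows they ran opposite ways between the Izumo1r+ and the other cells. All groups come from 1 library and differ in depth, so these values are a description of the groups and not a test.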

How the data were processed

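Cells were sequenced as 1 hashtagged 5′ droplet library, and the authors deposited UMI counts per gene and hashtag per barcode, not normalized, made with Cell Ranger on mm10 per the labels. Levels were computed here as CPM from summed UMIs, after the limits on genes and mitochondrial UMIs and an 80% majority of at least 10 hashtag UMIs on rows 11 to 18. Doublets between hashtags were removed only where no row reached that majority, and doublets within a row were kept. Free RNA was not removed. Rows were given no group, so no test was made. A gene was called when it differed at least 2-fold in the same direction in every row, on log2(CPM + 10), among genes with at least 20 CPM. On Poisson counts simulated for the Izumo1r comparison, this recovered 100% of 4-fold and 1.5% of 2-fold changes. Changes were set only in genes more abundant than Il4, Tnf, Ccl3 and Ccl4. These shares therefore do not cover those members, or counts as uneven between cells as the real ones. The members are all named, and other genes come from lists and the 3 most similar genes. A few genes of these are not reported here. Members and lists were chosen with earlier results of these data known. Cells compared by a member's UMIs were thinned to 2000 UMIs in 1 seeded draw, and shares of cells and pairs are means over all such draws. Alternatives are given in the closing section. Sequences came from RefSeq (6 of 8 members had a promoter entry), and gene positions from GENCODE M21. Python 3.11.15, numpy 2.4.6, scipy 1.17.1, pandas 2.3.3 and matplotlib 3.10.9 were used.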

Additional observations from a re-analysis of the deposited data

Results flagged for a closer look

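In 71 sets of 4 rows, 5 had a highest or lowest row that stood apart from the other 3 by Dixon's test, where chance flags about 1 set in 20. Ccl5 in the Ikzf2+ cells of row 17 was at 105 CPM, and 22.7 CPM without 1 cell. Il4 was at 15.02 CPM in the remaining cells of row 17 and at 6.14 CPM in the Rag1+ cells of row 11, on 15 and 4 UMIs. Xcl1 over all cells of row 13 was at 42.8 CPM, above the other odd rows. Ccl3 in the Izumo1r+ cells of row 14 was at 1.19 CPM, on the 1 UMI that these cells held. Outside the 8 hashtag rows in use, hashtag row 1 held 12255 UMIs, of 25599 on all rows not in use and 34861260 on the rows in use.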

How the results depend on the processing

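Of 268 values recomputed for 30 results, 233 moved by less than the spread between rows, 35 moved by more and 0 called values changed sign. Ccl5 stayed called lower in the Izumo1r+ cells, and Xcl1 higher in the Ikzf2+ cells, under every alternative run. For the Izumo1r+ cells (log2 ratio), Ccl3 was at -2.39 with 1 CPM added, where it was called on 1 UMI, at -0.13 with 50 CPM added and at -0.31 after thinning to 2000 UMIs with the split moved to 1 Izumo1r UMI. These changes, made together, gave 0.046 for Ccl4 (sign turned, not called), -0.049 for Xcl1 and 0.20 for Ltb, where 1 Izumo1r UMI without thinning gave -0.20, -0.19 and 0.13 (-0.50 for Ccl3), and a limit of 3 Izumo1r UMIs gave 0.047 for Ltb. For the Ikzf2+ cells, the mean over cells gave 1.65 for Xcl1, -0.40 for Ifng, -0.76 for Tnf and 0.24 for Ltb, 1 CPM added gave 2.89 for Xcl1 and -0.997 for Tnf, and 50 CPM added gave 1.35 for Xcl1. For even over odd rows, 1 CPM added gave 1.41 for Ccl3, 3.37 for Xcl1, 5.79 for Ifng, 4.12 for Il4 and 1.78 for Tnf (6 members called, with Tnf), and 50 CPM gave 0.092, 2.12, 1.93, 0.67 and 0.52 (4 called, without Il4). Cells of at most 4000 genes gave 0.92 for Tnf and 1.39 for Ltb (4 called, without Ccl5), totals without ribosomal and Gm genes 2.23 for Il4, the mean over cells 1.32 for Ltb, and leaving out the highest cell of each group, an alternative chosen after seeing the data, 3.37 for Xcl1. In pairs, Ifng in cells with Ccl5 differed by 3.97 points at 1500 UMIs and 5.44 in full counts, Il4 in cells with Ccl5 by -3.43 at 3000 UMIs, and Il4 in cells with Ifng by -1.89 at 1500 UMIs, -4.83 at 3000 UMIs and -4.59 in full counts. The cause was not tested.

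Leaving out 1 row at a time, the log2 ratio for Izumo1r+ cells ran from -2.37 to -1.77 for Ccl5, -0.86 to -0.60 for Ifng, 0.49 to 0.88 for Il4 and -0.67 to -0.33 for Xcl1. For Ikzf2+ cells it ran from 2.22 to 2.27 for Xcl1 and from -1.17 to 0.26 for Ccl4. For even over odd rows it ran from 2.31 to 2.98 for Ccl5, 3.49 to 3.97 for Ifng and 1.80 to 2.23 for Ltb, with 5 members called throughout. Ratios for Izumo1r+ and Ikzf2+ cells were taken within each row. No paired analysis was possible because the hashtag rows carry no replicate numbers that pair odd with even rows, and no test was made over rows whose population is unknown. With 1 library and medians of 3258 to 3804 UMIs per cell in the even rows, a transcript at the level of Ccl3 or Ccl4 was not seen in most cells, and its absence from a cell could not be told from low depth.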
